A study of Mus musculus with 2 samples.

Results

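Annexins and S100 proteins are the large calcium-dependent protein families of the cell periphery, and 26 of their genes were followed in 2 RNA sequencing libraries of mouse liver. The members are the protein-coding genes of the deposited tables whose GENCODE symbol begins with Anxa and a number, 11 genes, or with S100, 15 genes, out of 21637 protein-coding genes and 47442 features in all. S100a8, S100a9 and S100pbp were left out by the rule, and Anxa13 because the annotation types it as a processed transcript. The families were chosen by the FPKM ratios of their genes in earlier results on these libraries, while the members within them follow from the symbol alone. Their ratios below are therefore a description.

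Both libraries came from livers of C57BL/6 mice aged 8 to 9 weeks, taken 10 days after an adenovirus entered the tail vein. In the GBP5 library the virus carried guanylate-binding protein 5, an interferon-induced GTPase. In the β-Gal library, the control, it carried β-galactosidase, a bacterial enzyme. Both groups therefore received an adenovirus, and livers without a virus were not analysed here, nor were those given viruses with fragments of GBP5. Each group held 1 library, and the sources used here give neither the number of animals behind it nor the promoter of the transgene. The title of the series names injury and inflammation of a liver with raised GBP5 as its subject. Without replicates there is no test, so "higher" and "lower" mean a difference of at least 2-fold, GBP5 over β-Gal, on the scale of log2(FPKM + 1). Genes that reached 1 FPKM in either library are called measured. FPKM is a count of fragments scaled to gene length and library size. Each FPKM ratio carries a 95% interval that covers counting error only and says nothing of the spread between animals.

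Annexins share a core of repeats that binds acidic phospholipids when calcium rises, and they link membranes to each other, to the cytoskeleton and to wounds in the plasma membrane. S100 proteins are small EF-hand proteins that mostly work as dimers, change shape with calcium and then grip a target. Members of the families also bind each other: S100A10 holds annexin A2 in a tetramer at the plasma membrane, and S100A11 binds annexin A1. In healthy liver, hepatocytes hold little annexin A1 or A2, whereas bile duct, immune and stromal cells are richer in them.

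The libraries differed widely. Of 13599 measured features, 19.2% were higher and 5.56% lower, and the median log2 ratio was 0.48. The 11828 features at or above 1 FPKM on both sides had a median FPKM ratio of 1.45. When the GBP5 library was rescaled by that ratio, 7.04% were higher and 9.38% lower, and the median log2 ratio was 0.03. Values "after rescaling" refer to this alternative. The annotated mouse gene Gbp5 had 19.1 FPKM in the GBP5 library and 4.24 FPKM in the β-Gal library. The hepatocyte markers had a summed level of 54828 FPKM in the GBP5 library and 99506 FPKM in the β-Gal library, none was at 0, and albumin (Alb) led both. In a bulk liver sample, more or fewer cells of a type and more or less RNA per cell cannot be told apart.

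Summed over the members kept by the rule, both families were more than 2-fold higher in the GBP5 library as deposited, though not after rescaling. The annexins held 935 FPKM in the GBP5 library and 395 FPKM in the β-Gal library, a ratio of 2.36. The S100 members held 914 FPKM in the GBP5 library and 391 FPKM in the β-Gal library, a ratio of 2.34. S100a8 and S100a9, left out by the rule, had 88.1 and 70.3 FPKM in the GBP5 library and 840.2 and 654 FPKM in the β-Gal library. With them the S100 sum would be lower in the GBP5 library. After rescaling the ratios of the sums were 1.63 for the annexins and 1.62 for the S100 members. These sums came from a few genes. Of the 26 members, 16 reached 1 FPKM in either library, and 10 did not. Among the 16 measured, 6 were higher (Anxa2, Anxa4, Anxa5, S100a10, S100a11 and S100g), 1 was lower (Anxa1) and 9 were neither. The share higher was 37.5%, against 19.2% of all features, and the share lower was 6.25%, against 5.56%. The families were chosen by these ratios, and S100g reached 1 FPKM in the GBP5 library only, so the shares are a description. After rescaling, 5 were higher and 2 lower: Anxa4 no longer passed 2-fold, at a log2 ratio of 0.78, and S100a1 became lower, at -1.17. The families differed in their middle: the median log2 ratio was 0.58 for the 9 measured annexins and 0.16 for the 7 measured S100 genes, against 0.48 for all features. After rescaling these medians were 0.10 and -0.35, against 0.03 for all features.

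**Figure D1:**
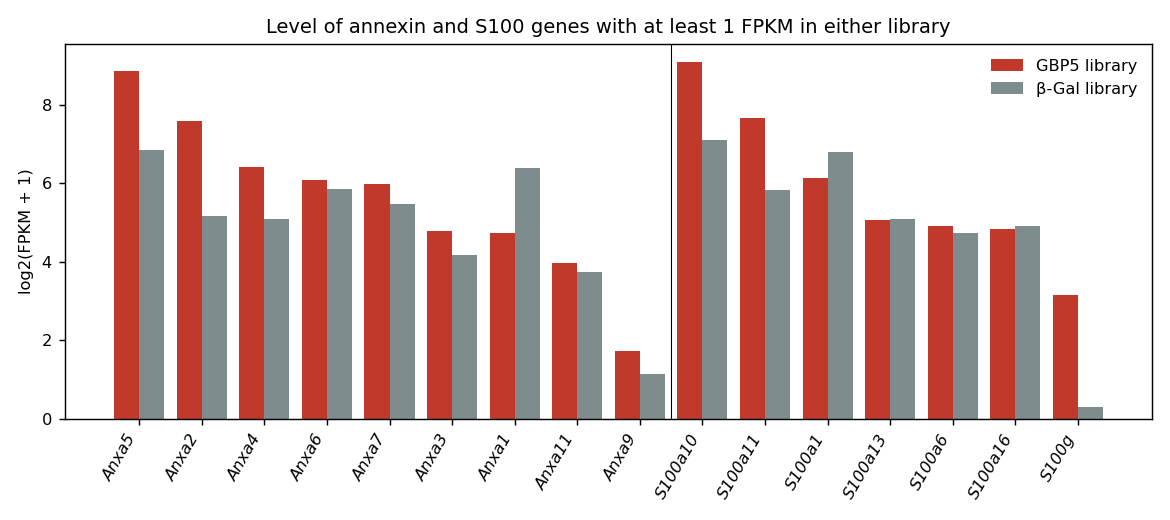
Level of each of the 16 measured members, as log2(FPKM + 1), in the GBP5 library (left bar of each pair) and the β-Gal library (right bar), annexins left of the line and S100 genes right of it. S100a10 and Anxa5 are the highest bars in both libraries, and Anxa1 and S100a1 stand visibly lower in the GBP5 library.

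Anxa2, Anxa5 and Anxa4 gave the highest ratios of the annexins. Anxa2, whose product joins S100A10 and also binds plasminogen and its activator, had 190 FPKM in the GBP5 library and 35.1 FPKM in the β-Gal library. That was a ratio of 5.42 (interval 5.003 to 5.87, from 3707 and 732 reads), and Anxa2 ranked 163 of 13599 features by log2 ratio. Anxa5, whose product binds phosphatidylserine and is widely used to stain dying cells, had 463 FPKM in the GBP5 library and 114 FPKM in the β-Gal library. Its ratio was 4.07 (interval 3.87 to 4.28, from 7497 and 1970 reads). Anxa4, which encodes an annexin typical of epithelia and secretory membranes, had 83.6 FPKM in the GBP5 library and 33.1 FPKM in the β-Gal library, a ratio of 2.53 (interval 2.33 to 2.73). Anxa2 and Anxa5 stayed higher after rescaling, with log2 ratios of 1.87 and 1.48, and together they made up 69.8% of the annexin FPKM in the GBP5 library and 37.6% in the β-Gal library.

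Anxa1 went the other way. It encodes a glucocorticoid-induced protein that limits phospholipase A2 and, released from cells, acts through formyl peptide receptors to restrain neutrophils. It had 25.5 FPKM in the GBP5 library and 82.5 FPKM in the β-Gal library, a ratio of 0.310 (interval 0.277 to 0.346, from 407 and 1406 reads), or 3.23-fold lower. Its log2 ratio of -1.65 became -2.16 after rescaling, and Anxa1 kept this direction under every alternative listed in the closing section. Its share of the annexin FPKM was 2.73% in the GBP5 library and 20.9% in the β-Gal library. The order of the pair was therefore turned round: the level of Anxa2 was 7.45 times that of Anxa1 in the GBP5 library and 0.426 times in the β-Gal library. Of the 14 neutrophil markers, 12 were lower, which is 85.7% against 5.56% of all features, and none was higher. Among them S100a8 and S100a9, the S100 genes that neutrophils store in bulk, had 88.1 and 70.3 FPKM in the GBP5 library and 840.2 and 654 FPKM in the β-Gal library. None of these markers was at 0 in either library, and their summed level was 1002 FPKM in the GBP5 library and 2409 FPKM in the β-Gal library. Lcn2, which hepatocytes also make, gave 788 and 413 FPKM of those sums. The granule genes Ltf and Ngp had 11.1 and 15.7 FPKM in the GBP5 library, against 176 and 164 FPKM in the β-Gal library. The part of neutrophils in the Anxa1 values was not tested.

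The other measured annexins lay near the middle of the transcriptome. Anxa3 had 26.4 FPKM in the GBP5 library and 16.9 FPKM in the β-Gal library (ratio 1.56, interval 1.33 to 1.83). Anxa6, the annexin with a doubled core, had 67.2 FPKM in the GBP5 library and 56.8 FPKM in the β-Gal library (ratio 1.18, interval 1.12 to 1.25). Anxa7, which encodes the granule-fusing protein synexin, had 62.3 FPKM in the GBP5 library and 43.3 FPKM in the β-Gal library. Its ratio of 1.44 is almost the median ratio of the features at or above 1 FPKM in both libraries. Anxa11, whose product tethers RNA granules to lysosomes, had 14.5 FPKM in the GBP5 library and 12.5 FPKM in the β-Gal library. Anxa9 had 2.34 FPKM in the GBP5 library and 1.23 FPKM in the β-Gal library, from 57 and 32 reads. After rescaling, the log2 ratios of Anxa3, Anxa6, Anxa7, Anxa9 and Anxa11 lay between -0.29 and 0.23, and those of Anxa6, Anxa7 and Anxa11 were below 0. Anxa8 had 2 reads in the GBP5 library and 10 in the β-Gal library, and Anxa10 had 1 read in the GBP5 library and 0 in the β-Gal library, so neither was measurable at this depth.

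**Figure D2:**
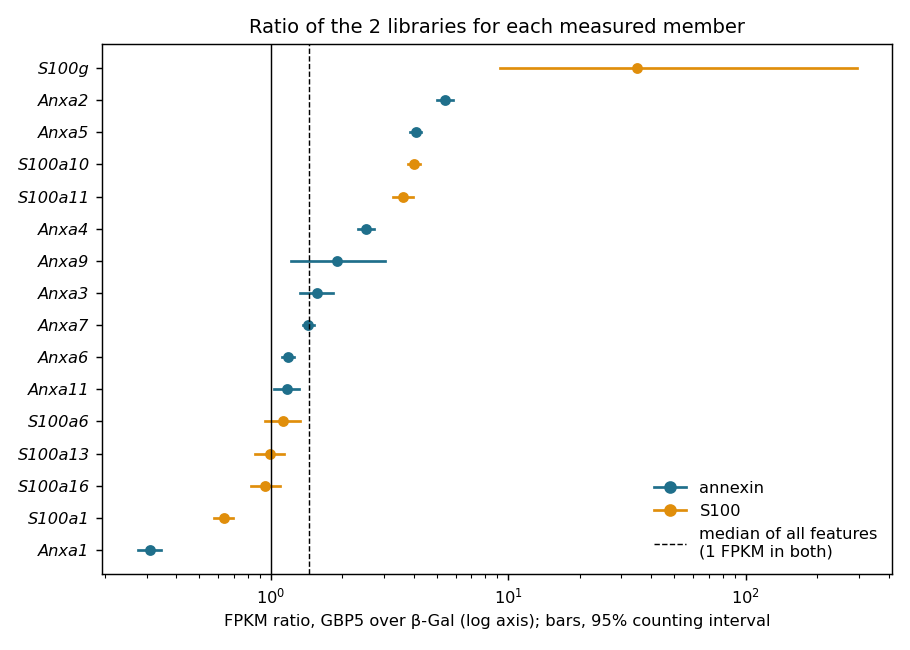
FPKM ratio of the GBP5 library over the β-Gal library for the 16 measured members, on a log axis, with bars for the 95% counting interval. A solid line marks parity, and a dashed line marks the median ratio of the features at or above 1 FPKM in both libraries. Anxa2, Anxa5, S100a10, S100a11 and Anxa4 lie beyond the dashed line with narrow bars, and S100g has the widest bar. Anxa3 and Anxa9 also lie beyond that line, with bars that cross it. Anxa1 and S100a1 lie well below parity, and S100a13 and S100a16 lie just below it with bars that cross it.

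Among the S100 members, the partners of annexins A2 and A1 carried the rise in the members' sum. S100a10 encodes p11, which has lost the ability to bind calcium and stays in the gripping shape. The gene had 545 FPKM in the GBP5 library and 136 FPKM in the β-Gal library, a ratio of 4.01 (interval 3.79 to 4.25, from 5546 and 1479 reads), and it had the highest level of all 26 members in both libraries. S100a11, which binds annexin A1 and takes part in membrane repair and keratinocyte growth control, had 201 FPKM in the GBP5 library and 55.8 FPKM in the β-Gal library (ratio 3.60, interval 3.27 to 3.98, from 1769 and 525 reads). Together these genes made up 81.7% of the S100 members' FPKM in the GBP5 library and 49.1% in the β-Gal library. After rescaling their log2 ratios were 1.46 and 1.30, so both stayed higher.

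The pairs of S100a10 with Anxa2 and of S100a11 with Anxa1 behaved differently. The level of S100a10 was 2.87 times that of Anxa2 in the GBP5 library and 3.87 times in the β-Gal library, and both genes were higher. The level of S100a11 was 7.88 times that of Anxa1 in the GBP5 library and 0.677 times in the β-Gal library, with S100a11 higher and Anxa1 lower. FPKM levels of different genes depend on the transcript lengths the authors used, but a shift of such a ratio between libraries does not.

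S100g gave the highest ratio of all members from very few reads. It encodes calbindin-D9k, a vitamin D-regulated calcium carrier known from the intestine, uterus and placenta. S100g had 7.87 FPKM in the GBP5 library, from 65 reads, and 0.226 FPKM in the β-Gal library, from 2 reads. The ratio was 34.8 with an interval of 9.25 to 293, and S100g ranked 82 of 13599 features by log2 ratio, at 2.85, or 2.39 after rescaling. The gene overlaps Ctps2, which lies on the opposite strand. Ctps2 had 27.1 FPKM in the GBP5 library and 11.8 FPKM in the β-Gal library, and its annotated exons share no base with those of S100g. No source used here gives the strand setting of the counts, and the part of Ctps2 reads in S100g was not tested. Calb1 and Calb2, the genes of the larger calbindins, stayed under 1 FPKM in both libraries.

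The S100 genes of broader or muscle-type expression lay near or below parity. S100a1, best known from heart and skeletal muscle, where it tunes calcium release and pumping, had 69.7 FPKM in the GBP5 library and 109.9 FPKM in the β-Gal library, a ratio of 0.634 (interval 0.579 to 0.695, from 752 and 1268 reads). S100a13, which helps release growth factors that lack a signal peptide, had 32.8 FPKM in the GBP5 library and 33.1 FPKM in the β-Gal library (ratio 0.989, interval 0.861 to 1.13). S100a16 had 27.8 FPKM in the GBP5 library and 29.3 FPKM in the β-Gal library (ratio 0.948, interval 0.823 to 1.09). S100a6, or calcyclin, a gene of proliferating cells and stroma, had 29.0 FPKM in the GBP5 library and 25.8 FPKM in the β-Gal library (ratio 1.12, interval 0.950 to 1.33). The intervals of S100a6, S100a13 and S100a16, which cover counting error only, include parity and lie below the median ratio of 1.45. After rescaling their log2 ratios were -0.35, -0.53 and -0.59, and none passed 2-fold. S100a1 passed 2-fold lower after rescaling only.

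**Figure D3:**
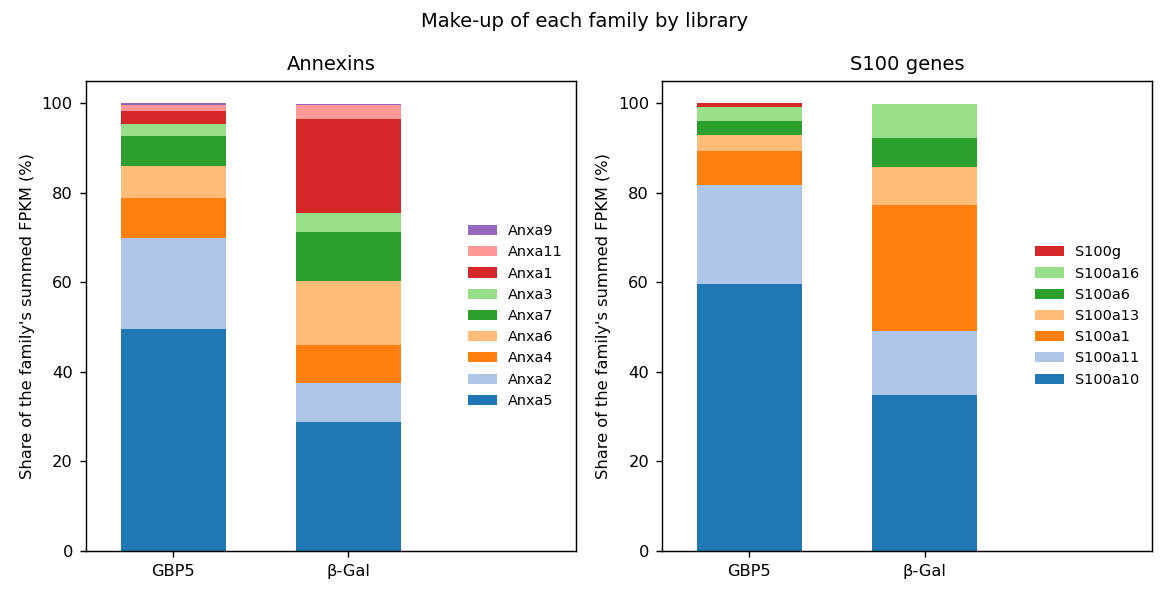
Share of the summed FPKM of each family's members, in percent, held by each measured member in the GBP5 library (left column of each panel) and the β-Gal library (right column). S100a8 and S100a9 are not members and are not in these sums. Anxa5 and Anxa2 widen and Anxa1 narrows in the GBP5 library, and S100a10 with S100a11 takes 81.7% there against 49.1% in the β-Gal library.

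The remaining S100 members were not measurable. S100a2, S100a5, S100a7a and S100z, of which S100a7a is known from inflamed skin, had no reads in either library. S100a14 had 1 read in the GBP5 library and 6 in the β-Gal library, and S100a3 had 3 reads and 0. S100b, the glial member, and S100a4, a gene of stroma and leukocytes, each had 0 reads in the GBP5 library and 1 in the β-Gal library. Of the exon bases of S100a4, 51.7% also belong to Gm42674, a gene annotated across S100a3 and S100a4 that had no reads in either library. No source used here says how reads that match both genes were counted, so the low S100a4 value is given as listed.

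Close copies in the annotation bear on 1 of the genes with high ratios. Of the 50-base words of S100a11 transcripts, 41.1% recur in the processed pseudogenes Gm12854, Gm7665 and Gm29240. Gm12854 had 13 reads in the GBP5 library, at 2.54 FPKM, and 0.366 FPKM in the β-Gal library, and the other two had none. For Anxa2 and Anxa4 the recurring share was 1.35% and 1.37%, and for Anxa1, Anxa5, S100a1, S100a10 and S100g no such word recurred.

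The S100 members on chromosome 3 fall into 2 blocks that differed in their ratios. Of the 15 members, 12 lie on chromosome 3 (GRCm38). The first block, of 10 genes from S100a1 to S100a7a, spans 90511034 to 90658669, and the second, S100a11 and S100a10, spans 93520488 to 93564643, with 2862 kb between them that hold genes of the epidermal differentiation complex. Of all features, 19.2% were higher and 5.56% lower, and with so few genes the counts of the blocks are a description. In the first block 4 genes were measured, and none was higher or lower. After rescaling S100a1 of this block was lower, at a log2 ratio of -1.17. In the second block both were higher, and they stand 28.8 kb apart. Within 250 kb of the second block none of the 10 other protein-coding genes reached 1 FPKM. Within 250 kb of the first block 11 of 14 other genes did, of which Ilf2 was higher, at a log2 ratio of 1.14, and S100a8 and S100a9 were lower, at -3.24 and -3.20. Between the blocks Sprr1a, which encodes a cornified envelope protein also induced in injured tissue, had 89.1 FPKM in the GBP5 library and 0.202 FPKM in the β-Gal library. S100a1 and S100a13, divided by 42 bases and transcribed away from each other, had ratios of 0.634 and 0.989.

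**Figure D4:**
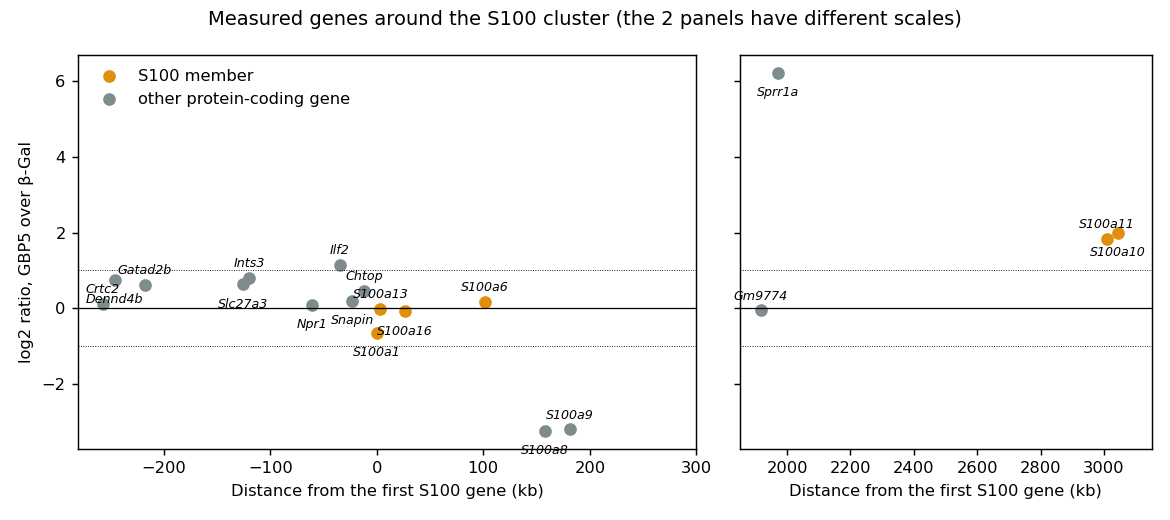
Log2 ratio, GBP5 over β-Gal, of each protein-coding gene with at least 1 FPKM around the S100 genes of chromosome 3, against the distance of its start from the first S100 gene in kb; the panels have different scales, and dotted lines mark 2-fold. The 4 measured members of the first block lie between the dotted lines, S100a11 and S100a10 lie above them, and S100a8 and S100a9 lie below.

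Promoter windows are shown for the members whose ratios stood out, so that the letters can be read beside the values. RefSeq windows (GRCm38.p6, 250 bases before to 50 after the start site) were found for 21 of the 26 members, and not for Anxa3, Anxa6, S100a2, S100a10 and S100a14. Each was searched on both strands for AP-1 (TGANTCA), the antioxidant response element core (TGACNNNGC), the GAS element bound by STAT factors (TTCNNNGAA), the TEAD element (GGAATG), the TATA box (TATAAA) and the E-box (CACGTG). Capitals mark every match, and no matches overlap in the windows printed. The first is that of Anxa2 (chr9:69453433-69453732, plus strand), which holds an AP-1 match 95 bases before the start site and a TATA box.
Anxa2: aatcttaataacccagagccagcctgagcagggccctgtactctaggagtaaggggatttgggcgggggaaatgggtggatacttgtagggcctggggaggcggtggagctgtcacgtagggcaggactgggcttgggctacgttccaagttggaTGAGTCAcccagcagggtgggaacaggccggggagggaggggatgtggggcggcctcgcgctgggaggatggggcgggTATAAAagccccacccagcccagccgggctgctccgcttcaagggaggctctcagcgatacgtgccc
The window of S100a11 (chr3:93520246-93520545, plus strand) holds 2 AP-1 matches, 136 and 38 bases before the start site, and an E-box.
S100a11: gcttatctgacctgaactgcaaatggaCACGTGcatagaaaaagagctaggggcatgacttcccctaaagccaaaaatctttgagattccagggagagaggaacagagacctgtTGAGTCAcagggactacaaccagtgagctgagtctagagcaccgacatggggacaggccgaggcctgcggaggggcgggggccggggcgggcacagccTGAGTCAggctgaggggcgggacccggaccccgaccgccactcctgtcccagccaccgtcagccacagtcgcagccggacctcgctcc
The window of Anxa5 (chr3:36475838-36476137, minus strand) holds none of these letters.
Anxa5: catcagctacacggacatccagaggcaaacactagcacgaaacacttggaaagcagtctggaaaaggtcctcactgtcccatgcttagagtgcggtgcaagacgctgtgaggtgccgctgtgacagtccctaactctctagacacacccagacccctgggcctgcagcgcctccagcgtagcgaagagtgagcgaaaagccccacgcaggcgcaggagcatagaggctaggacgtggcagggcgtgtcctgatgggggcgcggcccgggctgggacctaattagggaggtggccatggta
The window of S100g (chrX:162964550-162964849, minus strand) holds an antioxidant response element core and, at the annotated start site, a TATA box.
S100g: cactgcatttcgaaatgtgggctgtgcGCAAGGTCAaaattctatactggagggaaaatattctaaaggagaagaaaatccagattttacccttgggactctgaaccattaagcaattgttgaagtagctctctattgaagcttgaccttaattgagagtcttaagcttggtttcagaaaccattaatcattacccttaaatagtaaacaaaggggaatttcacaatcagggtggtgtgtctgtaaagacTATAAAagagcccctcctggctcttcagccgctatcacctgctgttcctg
The window of Anxa1 (chr19:20390622-20390921, minus strand), the lower member, holds a TEAD element 236 bases before the start site and a TATA box 32 bases before it.
Anxa1: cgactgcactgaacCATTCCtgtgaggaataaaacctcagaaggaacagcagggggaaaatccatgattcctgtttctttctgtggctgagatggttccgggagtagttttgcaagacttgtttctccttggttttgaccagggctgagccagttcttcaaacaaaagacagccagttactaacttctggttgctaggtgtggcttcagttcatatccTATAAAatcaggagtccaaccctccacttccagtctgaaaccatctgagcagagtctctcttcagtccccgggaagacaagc
Some members have several windows, so matches were counted per window. AP-1 letters occurred in 2 of the 6 windows of higher members and in 1 of the 10 windows of those that were neither, against 7.81% of all 32851 windows. The antioxidant response element core occurred in 2 of 6 and in 3 of 10, against 12.4% of all windows. The GAS element occurred in no window of a measured member, against 8.30% of all windows. A match is a description of these letters and not a site shown to be bound.

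Genes that work with annexins and S100 proteins included several with high ratios. Of 21 listed partners and receptors, 19 were measured, 9 were higher and 1 lower, which is 47.4% and 5.26%, against 19.2% and 5.56% of all features. The list was chosen with earlier results of these data known. Plat and Dysf reached 1 FPKM in the GBP5 library only, so these shares are a description. Their median log2 ratio was 0.93, against 0.48 for all features. After rescaling 2 stayed higher, Plat and Myof, or 10.5% against 7.04% of all features, and 1 lower. Plat encodes tissue plasminogen activator, which the annexin A2 tetramer binds at the cell surface, and had 8.24 FPKM in the GBP5 library and 0.343 FPKM in the β-Gal library (ratio 24.0, interval 14.6 to 42.4). Plg, the gene of its substrate plasminogen that hepatocytes secrete, was the lower one, at 319 FPKM in the GBP5 library and 785 FPKM in the β-Gal library. Myof, which encodes the membrane repair protein myoferlin, had 7.34 FPKM in the GBP5 library and 1.65 FPKM in the β-Gal library (ratio 4.46). Pla2g4a, the cytosolic phospholipase A2 that annexin A1 restrains, had 13.02 FPKM in the GBP5 library and 4.16 FPKM in the β-Gal library (ratio 3.13).

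Receptors and scaffolds, named with their values known, had smaller ratios. Fpr1 and Fpr2, the formyl peptide receptor genes, had 9.17 and 15.0 FPKM in the GBP5 library and 8.04 and 9.43 FPKM in the β-Gal library, and neither passed 2-fold. Tlr4, a receptor for released S100A8 and S100A9, had 12.1 FPKM in the GBP5 library and 4.35 FPKM in the β-Gal library, and was higher. Ager, the gene of the S100 receptor RAGE, stayed under 1 FPKM in both. Ahnak, the giant scaffold that the S100A10 and annexin A2 complex recruits, had 7.67 FPKM in the GBP5 library and 4.41 FPKM in the β-Gal library. Cacybp, which encodes the calcyclin-binding protein, had 69.3 FPKM in the GBP5 library and 31.9 FPKM in the β-Gal library, and was also higher.

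Calcium-binding proteins outside the families were compared to see how the rest of the EF-hand genes moved. Of 25 listed, 21 were measured, and 7 (33.3%, against 19.2% of all features) were higher and none lower. Their median log2 ratio was 0.60, against 0.48 for all features. After rescaling Rcn1 alone was higher, which is 4.76% against 7.04% of all features, and Chp1, a calcineurin-like regulator, was lower. Calm2 and Calm3, which encode calmodulin, had ratios of 2.14 and 2.40. Rcn1, an EF-hand protein of the endoplasmic reticulum, had 21.1 FPKM in the GBP5 library and 6.50 FPKM in the β-Gal library (ratio 3.25). Slc25a24, a calcium-gated mitochondrial carrier, had a ratio of 3.36. Of 22 membrane repair and ESCRT-III genes found, 21 were measured, 5 were higher (Myof, Dysf, Capn2, Chmp2b and Chmp4b) and none lower. The share higher was 23.8%, near the 19.2% of all features, and the median log2 ratio was 0.60. After rescaling Myof alone was higher, again 4.76% against 7.04% of all features. The lists share genes, so their counts are not separate. Myof, Dysf, Capn1, Capn2, Pdcd6 and Pdcd6ip are also among the listed partners and receptors. The same holds for Sri and Pdcd6 of the EF-hand genes. Dysf, the muscle repair protein dysferlin, had 3.80 FPKM in the GBP5 library and 0.895 FPKM in the β-Gal library (ratio 4.24), and Capn2, a calpain, had a ratio of 2.46.

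**Figure D5:**
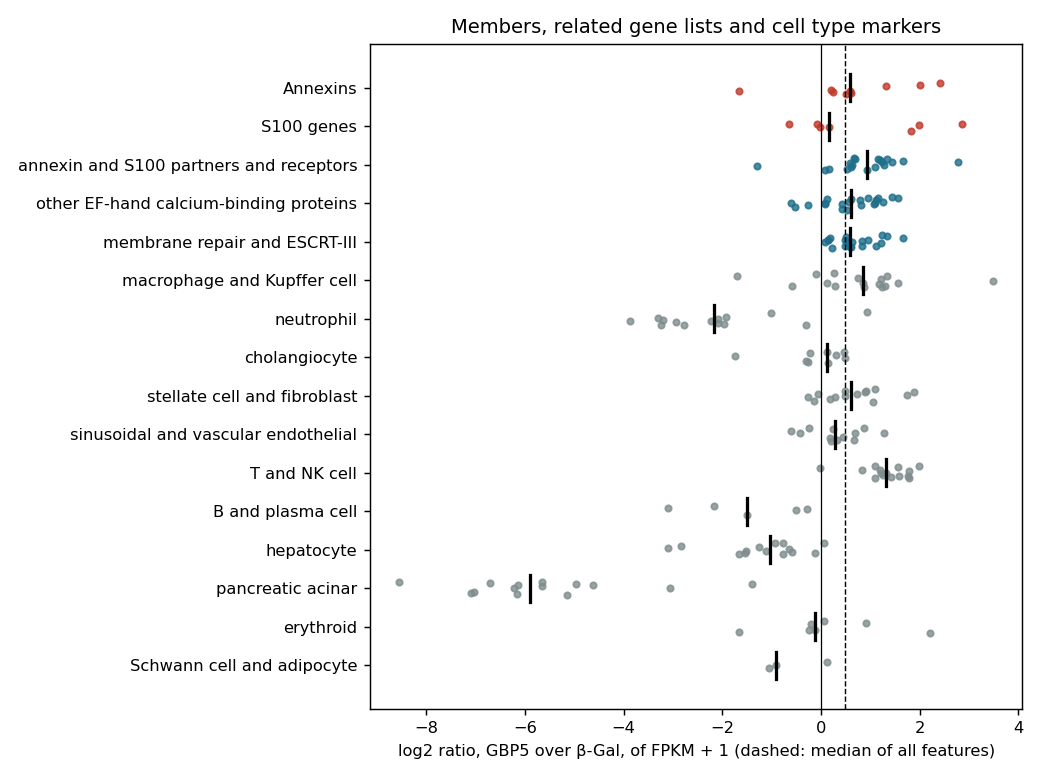
Log2 ratio, GBP5 over β-Gal, of each measured gene (points) and the median (black bars) for the annexins, the S100 genes, the related gene lists and the cell type markers, with a solid line at parity and a dashed line at the median of all features, 0.48. The annexins spread from Anxa1 at -1.65 to Anxa2 at 2.40, and the S100 genes from S100a1 at -0.65 to S100g at 2.85. Neutrophil and pancreatic acinar markers lie almost wholly on the lower side.

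Markers of cell types that express annexins and S100 genes differed between the libraries, and their part in the members' values was not tested. Of all features, 19.2% were higher and 5.56% lower, or 7.04% and 9.38% after rescaling. Macrophage and Kupffer cell markers were higher in 7 of 16 measured cases (43.8%) and lower in 1 (6.25%). After rescaling 2 were higher and 2 lower (12.5% each). Their summed levels were 1925 FPKM in the GBP5 library and 1053 FPKM in the β-Gal library. Gpnmb, induced in lipid-laden macrophages, had a ratio of 17.1, and Vsig4, a Kupffer cell receptor, was 4.11-fold lower. These genes are the extremes of the list and do not stand for the rest of it. Clec4f, Cd5l, Marco and Trem2 of the same list had log2 ratios of -0.099, 0.845, 0.881 and 0.119. None of them passed 2-fold, as deposited or after rescaling. For T and NK cells, 13 of 15 markers were higher (86.7%), or 6 after rescaling (40.0%) and 4 with a pseudocount of 5 FPKM. Their sums were 219 FPKM in the GBP5 library and 69.4 FPKM in the β-Gal library. Gzmb and Cd28 had ratios of 4.26 and 6.03. Stellate cell and fibroblast markers were higher in 4 of 14 (28.6%), or 2 after rescaling (14.3%) and 2 with that pseudocount, and lower in none. Their sums were 234 FPKM in the GBP5 library and 148 FPKM in the β-Gal library. Col1a1 and Timp1, the extremes of the list, had ratios of 4.20 and 6.04, and Timp1 had 0.887 FPKM from 14 reads in the β-Gal library. Lrat, Dcn, Hand2 and Reln had ratios of 0.887, 0.960, 0.730 and 1.14. Cholangiocyte markers, from bile duct cells rich in Anxa4, were higher in none of 9 measured cases and lower in 1, Krt19, with sums of 103 FPKM in the GBP5 library and 104 FPKM in the β-Gal library. Endothelial markers were higher in 1 of 12 (8.33%), Lyve1. After rescaling none was higher and 1 was lower (8.33%). Their sums were 245 FPKM in the GBP5 library and 199 FPKM in the β-Gal library, and Pecam1 had a ratio of 1.90. Mesothelial markers all stayed under 1 FPKM, with Wt1 and Krt14 at 0 in the GBP5 library. No defining marker of the other types in this paragraph was at 0 in either library.

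The remaining lists were lower or mixed in the GBP5 library. Of 5 measured B and plasma cell markers, 3 were lower, with sums of 26.2 FPKM in the GBP5 library and 207 FPKM in the β-Gal library; the antibody genes Igkc and Jchain were 9.01-fold and 6.03-fold lower. Erythroid markers were higher in 1 of 7 (Slc4a1) and lower in 1 (Alas2), 14.3% each, against 19.2% and 5.56% of all features. Schwann cell and adipocyte markers were measured in 3 of 8 cases and lower in 1 (33.3% of those measured). Their sums were 4.48 FPKM in the GBP5 library and 7.50 FPKM in the β-Gal library. The lower one was Adipoq, listed at 0 in the GBP5 library with 1.07 FPKM in the β-Gal library. Cfd was 3.04-fold lower in FPKM. Hepatocyte markers were lower in 7 of 14 cases, or 12 after rescaling, and Cyp2e1 and Hpd were 7.11-fold and 8.65-fold lower. Pancreatic acinar markers were lower in all 14 cases, with a summed level of 14.3 FPKM in the GBP5 library, where 9 of them were at 0, and 1317 FPKM in the β-Gal library. The protease genes Ctrb1 and Try4 were listed at 0 in the GBP5 library, and at 372 and 136 FPKM in the β-Gal library. The β-Gal library therefore held transcripts of pancreas, and their part in the values of Anxa1 and S100a1, the members lower as deposited or after rescaling, was not tested.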

How the data were processed

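RNA of 1 liver library per group was analysed, with the group taken from the adenovirus in the labels (GBP5 or β-Gal). The deposited values are FPKM per gene, made by the authors. The submitters' processing notes name GRCm38 as the assembly, with HTSeq 0.6.1 and TopHat2 as tools. Not given in the sources used here are the FPKM program, the release of the annotation, whether strand was used and how reads with more than 1 match were treated. FPKM divides by each library's total, so a few abundant genes can shift all others.

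Symbols, types and places came from GENCODE M21, on the same assembly, by identifier for 46574 of 47442 features. Levels are FPKM as deposited, and log2 ratios were taken after adding 1 FPKM to both libraries. A gene was measured at 1 FPKM or more on either side, and called at a log2 ratio of 1 or -1.

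Reads were recovered from the steps of FPKM. FPKM times the mean isoform length repeats in steps that give scaling totals of 17205716 reads in the GBP5 library and 18405429 in the β-Gal library. The ratio of a gene's FPKM values then equals a ratio of whole reads, which held within 1e-12 for 99.9% of 18457 features above 0 in both libraries. The common multiple was taken from the M21 length when within 5% of a whole number, and otherwise set to 1, the fewest reads possible, as for Anxa7, Plat and Myof. A gene at 0 in 1 library has the nearest whole reads in the other, by its M21 length. Intervals are exact Clopper-Pearson 95% intervals. Python 3.11.15, pandas 2.3.3, numpy 2.4.6 and scipy 1.17.1 were used, and the procedure was tested on simulated reads.

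Members, lists and alternatives were chosen with earlier results of these data known. All members are named, with the 3 genes of each related list and 2 of each cell type list that have the largest absolute log2 ratio, among measured genes. A gene that this rule names is not reported here. Further list genes were named with their values seen. Of the listed symbols, Chmp1b and Ahsp were not matched.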

Additional observations from a re-analysis of the deposited data

How the results depend on the processing

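The alternatives changed the pseudocount (0.1 or 5 FPKM), the filter (none, or 5 FPKM), the features (protein-coding alone) or the scaling, which was by the median ratio, to equal sums (TPM), or to equal sums leaving out the top 50 genes by level. The annexin counts, 3 higher and 1 lower, and the 3 higher S100 genes stayed within 1.5 times under all of them. Rescaling by the median ratio gave 1 lower S100 gene (none as deposited), 958 higher and 1276 lower features (2605 and 756 as deposited), 2 higher partners and receptors, 1 higher and 1 lower EF-hand gene and 1 higher membrane repair gene. With a pseudocount of 5 FPKM there were 1101 higher and 435 lower features, 5 higher partners, 3 higher membrane repair genes and 4 higher T and NK cell markers. With 0.1 FPKM 1 EF-hand gene was lower, and with equal sums leaving out the top 50 genes 4 were higher. Of 127 values of single measured members under these alternatives, 120 kept their direction and side of 2-fold; no called member changed sign. Anxa4 dropped under 2-fold and S100a1 passed it, both by rescaling to the median, and Anxa6, Anxa7, Anxa11, S100a6 and, with equal sums, S100a13 crossed parity. The cause of these moves lies in the common factor that rescaling applies to every gene. No paired analysis was possible because each group holds 1 library. Depth limits the members with under 10 reads in a library, S100g among them.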
